A study of Homo sapiens with 12 samples.

Results

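Genes of TGF-beta and activin signalling were followed in 2 hepatocellular carcinoma (HCC) cell lines after knockdown of the long non-coding RNA FASRL. The 9 genes TGFB1, TGFB2, TGFBR1, TGFBR2, TGFBR3, INHBE, INHBA, SMAD3 and SMAD7 were chosen by symbol, with their values after the knockdown already known, so their knockdown values are given as a description with no test. Of these, 8 were among the 8842 genes listed in the deposited files, and INHBE, which encodes the activin E subunit made in liver, was not listed. The question asked was whether the receptors and target genes go the way of TGFB2, whose level was higher after the knockdown in both lines.

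The 12 RNA-seq libraries fall into 4 groups of 3: HepG2 with siFASRL, HepG2 with the control siNC, LM3 with siFASRL and LM3 with siNC, all harvested 48 h after transfection. HepG2 and LM3 are established human liver cancer lines, and which siRNA against FASRL was used is not stated. FASRL itself is not among the listed genes, so the knockdown is not shown by these values. Nothing says that the replicates are separate cultures, so the p-values measure the spread between these libraries. HepG2 carried hepatocyte markers at high levels, with a mean ALB value of 815.29 ± 31.70 (SD, n = 3) under siNC, whereas LM3 had ALB at 0.36 ± 0.28 and AFP at 0.29 ± 0.22. The LM3 libraries therefore lacked the secreted markers by which a hepatocyte is usually known.

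TGF-beta ligands are secreted in a latent form and, once released, are bound by the type II receptor TGFBR2, which phosphorylates the type I receptor TGFBR1. TGFBR1 then phosphorylates SMAD2 and SMAD3, which enter the nucleus with SMAD4 and act on target genes, while SMAD7 blocks the receptor as a feedback inhibitor. In liver the pathway is known for restraining hepatocyte growth, for driving fibrosis and, in carcinoma cells, for mesenchymal features.

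TGFB2 (gene ID 7042) lies at chr1:218346235-218444619 on the plus strand in GENCODE v29 on GRCh38, TGFBR1 (7046) at chr9:99104038-99154192 (plus), TGFBR2 (7048) at chr3:30606502-30694142 (plus) and SMAD7 (4092) at chr18:48919853-48952052 (minus). TGFB1 (7040) lies at chr19:41301587-41353911 (minus), INHBA (3624) at chr7:41667168-41705834 (minus), SMAD3 (4088) at chr15:67063763-67195195 (plus) and TGFBR3 (7049) at chr1:91680343-91906335 (minus, although the files give plus).

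Every level given is the authors' normalized RSEM value, deposited with 2 decimals, and whether it is FPKM or TPM is not stated. Levels of different genes can be set side by side only if the values are per length, as FPKM and TPM are. The files hold no counts, so the depth of each library is unknown. Per library, the sum over all listed genes lay between 316534 and 355094.

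TGFB2, the ligand that binds TGFBR2 poorly without a coreceptor, was high in the siFASRL libraries of both lines. In HepG2 its values were 5.67, 5.82 and 5.76 with siFASRL and 1.93, 1.66 and 2.03 with siNC. The LM3 values were 6.64, 6.52 and 6.75 with siFASRL and 3.90, 3.77 and 3.90 with siNC. In each line the 3 siFASRL values lay above the 3 siNC values, with a ratio of means of 3.07 in HepG2 and 1.72 in LM3. On the log2(value + 1) scale used for all log2 values here, the difference was 1.23 in HepG2 and 0.65 in LM3. The LM3 siNC values also lay above those of HepG2 siNC, so the lines were closer together after the knockdown than before it.

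TGFB1, a ligand made by most cell types, had values of 75.29, 76.76 and 77.12 in HepG2 with siFASRL against 62.21, 70.35 and 61.61 with siNC. These groups did not overlap, and the log2 difference was 0.24, or 0.08 with quantile normalization. In LM3 the values were 59.82, 58.43 and 57.51 with siFASRL and 53.00, 62.71 and 62.34 with siNC. The LM3 groups overlapped, since the lowest siNC library lay under all siFASRL libraries and the other 2 above them.

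INHBA, which encodes the subunit of activin A, was near 0 in 3 of the 4 groups. Its values in HepG2 were 0.54, 0.66 and 0.64 with siFASRL and 0.04, 0.04 and 0.03 with siNC. In LM3 they were 0.02, 0.04 and 0.05 with siFASRL and 0.01, 0.02 and 0.01 with siNC. The HepG2 siFASRL libraries stood above all others, yet no library reached a value of 1, so INHBA was left out of the tests and values this close to the rounding give no usable fold.

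**Figure D1:**
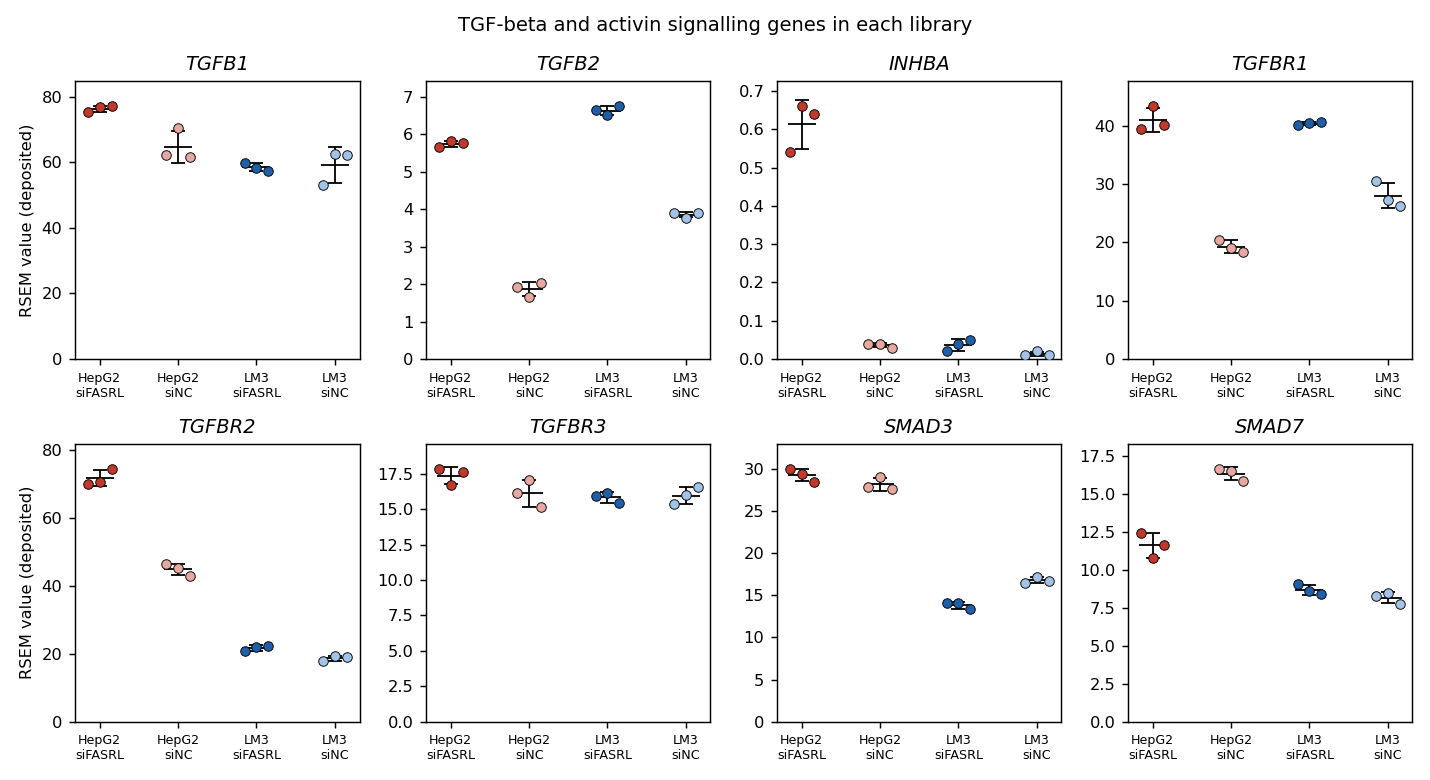
Deposited RSEM value (y axis, starting at 0) of each listed gene in the 4 groups (x axis). Points are libraries, and the horizontal bar with whiskers is the mean ± SD of 3. TGFB2 and TGFBR1 are higher with siFASRL in both lines, with mean TGFB2 values of 5.75 against 1.87 in HepG2 and 6.64 against 3.86 in LM3.

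TGFBR1, the type I receptor, was high in the siFASRL libraries of both lines as well. In HepG2 its values were 39.37, 43.33 and 40.21 with siFASRL and 20.48, 18.98 and 18.36 with siNC. In LM3 they were 40.18, 40.39 and 40.56 with siFASRL and 30.49, 27.26 and 26.31 with siNC. No library of the 2 conditions overlapped within a line, and the log2 difference was 1.05 in HepG2 and 0.51 in LM3. With siFASRL the mean levels of the lines were close, at 40.97 ± 2.09 (SD, n = 3) in HepG2 and 40.38 ± 0.19 in LM3.

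TGFBR2, the type II receptor that binds the ligand, had HepG2 values of 69.79, 70.55 and 74.27 with siFASRL and 46.26, 45.13 and 42.85 with siNC. The LM3 values were 20.65, 21.84 and 22.30 with siFASRL and 17.82, 19.23 and 19.04 with siNC. The groups stayed apart in both lines, with a ratio of means of 1.60 in HepG2 and 1.16 in LM3. LM3 held less TGFBR2 than HepG2 in every library of either condition.

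TGFBR3, or betaglycan, is the coreceptor that presents TGFB2 to the type II receptor. Its values overlapped between the conditions in both lines and ranged from 15.15 to 17.84 over the 12 libraries. The receptors did not all go the way of TGFB2: the signalling pair TGFBR1 and TGFBR2 was higher with siFASRL, and the coreceptor was not separated from its control.

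SMAD3, the receptor-activated transcription factor, had HepG2 values of 29.99, 29.34 and 28.49 with siFASRL and 27.90, 29 and 27.59 with siNC. Those of LM3 were 14.04, 14.05 and 13.32 with siFASRL and 16.49, 17.16 and 16.66 with siNC. The HepG2 groups overlapped, while in LM3 the siFASRL values lay under all siNC values, with a log2 difference of -0.26, or -0.15 with median-of-ratios scaling.

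SMAD7, the inhibitory SMAD and itself a target of the pathway, went the other way from TGFB2 in HepG2. Its HepG2 values were 12.46, 10.78 and 11.62 with siFASRL and 16.65, 16.53 and 15.85 with siNC, with no overlap and a log2 difference of -0.46. In LM3 they were 9.08, 8.59 and 8.44 with siFASRL and 8.29, 8.50 and 7.76 with siNC, and here the groups overlapped.

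Of the 8 listed genes, 7 passed the filter on low values (at least 1 in at least 3 libraries of the fit) in each line. Among these 7, the conditions did not overlap for 5 genes in HepG2 and 4 in LM3. Over all tested genes the conditions did not overlap for 89.6% in HepG2 and 80.1% in LM3, and nothing is read from the count, since these contrasts chose the genes. If the values are per length, TGFB1 had the highest mean level within each group, INHBA the lowest and TGFB2 the next lowest. TGFBR2 came after TGFB1 in both HepG2 groups and TGFBR1 did so in both LM3 groups. Neighbours in the order whose values overlapped were SMAD7 and TGFBR3 in HepG2 siNC and SMAD3 and TGFBR3 in LM3 siNC.

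The promoters are shown for the ligand and the receptor pair that were higher in both lines and for SMAD7, which was lower in HepG2. They come from RefSeq (GRCh38.p14) as windows of 250 bases before to 50 after a gene start, printed 5′ to 3′ on the gene's strand. For these 4 genes the RefSeq starts used differ from the GENCODE v29 starts given above. All 8 listed genes had at least 1 window, 22 in all, and the first window of each gene was used. The windows are chr1:218345086-218345385 (plus strand) for TGFB2, chr9:99104863-99105162 (plus strand) for TGFBR1, chr3:30606106-30606405 (plus strand) for TGFBR2 and chr18:48950916-48951215 (minus strand) for SMAD7. Capitals mark letters of the motifs searched on both strands.
TGFB2: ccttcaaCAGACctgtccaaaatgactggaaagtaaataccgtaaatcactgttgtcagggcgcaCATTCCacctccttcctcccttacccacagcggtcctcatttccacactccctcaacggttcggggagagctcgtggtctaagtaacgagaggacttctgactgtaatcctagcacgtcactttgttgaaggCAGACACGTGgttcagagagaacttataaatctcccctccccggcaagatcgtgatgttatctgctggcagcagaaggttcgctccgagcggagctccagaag
TGFBR1: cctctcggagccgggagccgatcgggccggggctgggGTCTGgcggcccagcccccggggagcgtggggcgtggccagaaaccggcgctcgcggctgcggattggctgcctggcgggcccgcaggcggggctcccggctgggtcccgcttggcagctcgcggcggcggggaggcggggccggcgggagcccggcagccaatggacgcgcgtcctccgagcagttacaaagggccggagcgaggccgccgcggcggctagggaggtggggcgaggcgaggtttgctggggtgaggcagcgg
TGFBR2: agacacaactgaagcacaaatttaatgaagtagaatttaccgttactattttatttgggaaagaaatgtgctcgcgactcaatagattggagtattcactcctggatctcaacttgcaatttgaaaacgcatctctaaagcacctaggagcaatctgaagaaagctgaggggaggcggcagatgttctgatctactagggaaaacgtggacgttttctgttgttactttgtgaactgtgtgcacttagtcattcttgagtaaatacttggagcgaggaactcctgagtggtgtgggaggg
SMAD7: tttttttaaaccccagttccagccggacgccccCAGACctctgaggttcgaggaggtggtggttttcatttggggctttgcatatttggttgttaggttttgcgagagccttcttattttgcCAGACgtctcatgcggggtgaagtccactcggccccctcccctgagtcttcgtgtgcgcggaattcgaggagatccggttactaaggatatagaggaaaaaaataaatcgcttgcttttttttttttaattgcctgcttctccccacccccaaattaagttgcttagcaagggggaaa
The TGFB2 window held the SMAD letters CAGAC at 2 places, the E-box CACGTG at 1 place sharing a base with a CAGAC, and the TEAD letters GGAATG on the other strand. The SMAD7 window held CAGAC at 2 places, the TGFBR1 window held it once on the other strand, and the TGFBR2 window held no motif that was searched. Of all 35116 windows, 45.3% held CAGAC, 7.26% CACGTG and 14.0% GGAATG. The other motifs searched were TGANTCA (AP-1), TGACGTCA (CRE) and TGATGNAA (CEBP-ATF), held by 7.71%, 1.85% and 3.62% of windows, and none was in these 4 windows. Windows not shown differed from these. Window 2 of TGFBR2 held TGANTCA at 1 place, and window 5 of TGFBR1 held GGAATG at 1 place. The other TGFBR1 windows not shown held CAGAC at 0 or 2 places. A match is a description of letters, not a site or a cause.

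**Figure D2:**
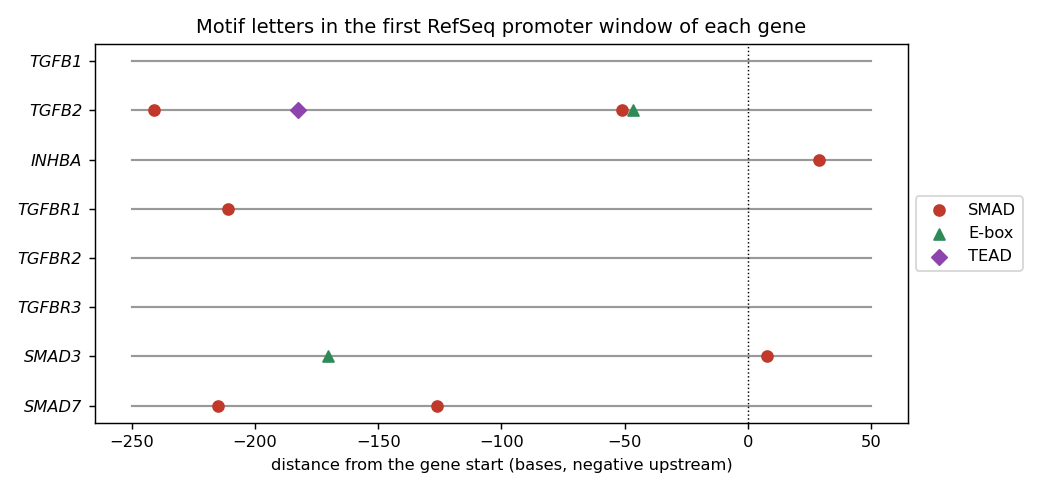
Places of the motif letters (symbols) along the first RefSeq promoter window (gray line) of each listed gene, with the distance from the gene start in bases on the x axis. CAGAC stands at 2 places in TGFB2 and in SMAD7, and no motif searched stands in the first windows of TGFB1, TGFBR2 and TGFBR3. Further windows of a gene are not drawn.

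The wider pathway was read from 9 lists with 94 listed genes besides the 8, tested with limma. The threshold was a log2 fold change of 1 or more in either direction together with an adjusted p, over all tested genes, under 0.05. In HepG2, 10 of 87 tested list genes were past the threshold as higher and 7 as lower with siFASRL, beside 3.61% higher and 6.79% lower of all 8144 tested genes. By adjusted p alone, 48 rose and 31 fell, beside 44.8% and 44.3% of all tested genes. In LM3, 5 of 79 were past the threshold as higher and 5 as lower, beside 1.42% and 6.20% of all 7483 tested genes. The LM3 split moved to 8 higher and 6 lower with a pseudocount of 0.1, 8 and 5 with median-of-ratios scaling and 8 and 4 with quantile normalization. By adjusted p alone, 30 rose and 32 fell in LM3, beside 33.9% and 43.5%. The median log2 fold change of the list genes was 0.21 in HepG2 and -0.05 in LM3, against 0.10 and -0.06 over all tested genes.

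**Figure D3:**
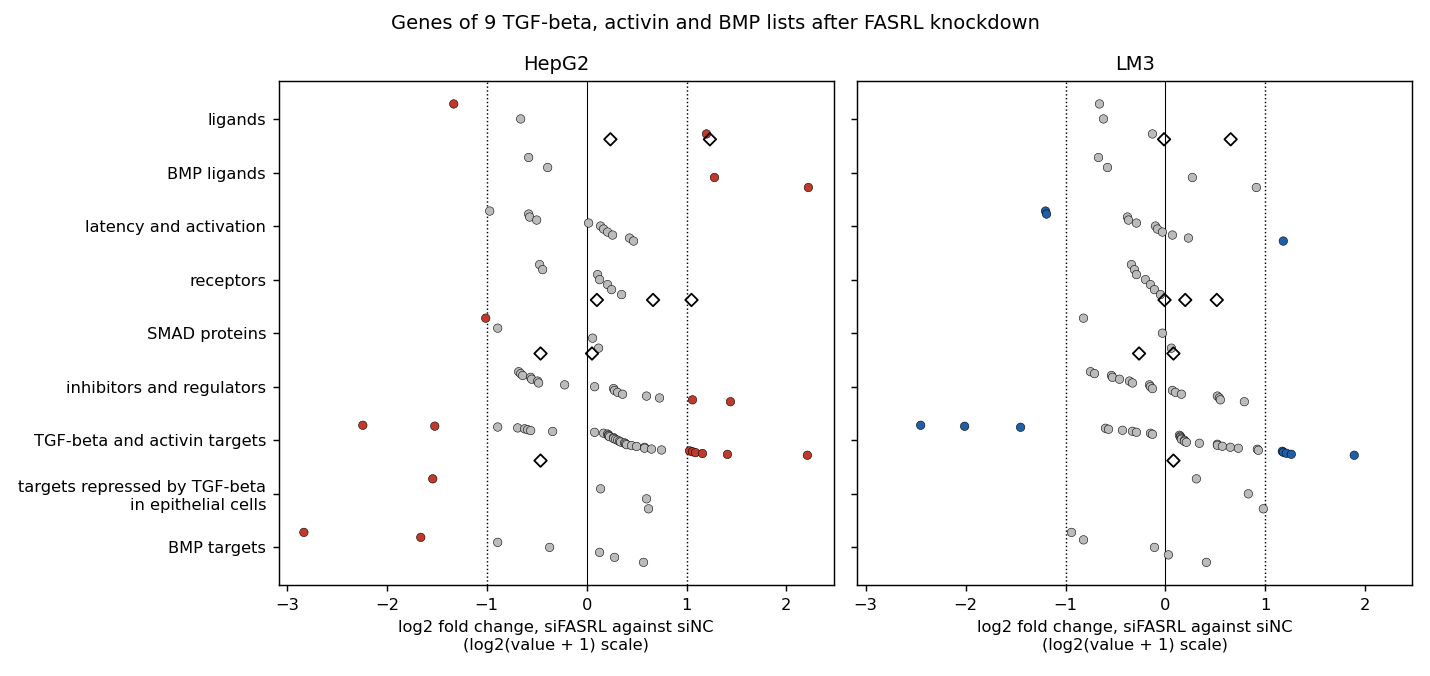
Log2 fold change of siFASRL against siNC (x axis) for the tested genes of each list (y axis) in HepG2 and LM3. Points are genes, coloured where past the threshold and gray where not, open diamonds are the untested signalling genes, and dotted lines mark -1 and 1. The HepG2 panel has 17 genes past the threshold and the LM3 panel 10, with a gene on several lists drawn in each.

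Among the other ligands, the subunit genes of inhibin and activin B split in HepG2. INHA, the inhibin alpha subunit, fell from a mean of 21.42 ± 1.41 (SD, n = 3) to 7.91 ± 0.30 in HepG2, a log2 fold change of -1.33 (SE 0.063, limma adjusted p = 1.32e-07). INHBB, the activin B subunit, rose from 1.98 ± 0.31 to 5.82 ± 0.15, a log2 fold change of 1.2 (SE 0.076, limma adjusted p = 6.12e-07). In both cases the 3 siFASRL values lay on the stated side of all 3 siNC values. In LM3 the INHA log2 fold change was -0.66, and the INHBB conditions overlapped around a higher mean of 22.39 ± 2.79 with siNC. The INHBB change of -0.13 in LM3 did not pass the test, but did without LM3 siNC replicate 1, at -0.23. It was smaller with median-of-ratios scaling, at -0.02, and without LM3 siNC replicate 3, at -0.06. FST, which encodes the activin-binding protein follistatin, fell by 0.66 in HepG2 and rose by 0.79 in LM3 on the log2 scale, with no overlap of conditions in either line. With quantile normalization the FST change in HepG2 was -0.34 and the INHA change in LM3 -0.32, both still past the test.

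Of 4 tested genes on the list of BMP ligands, 2 rose and 2 fell by adjusted p in each line. Of all tested genes, 44.8% rose and 44.3% fell in HepG2, and 33.9% and 43.5% in LM3. The 2 that fell were BMP8B and BMP1, which carries the name but encodes a protease and not a ligand. BMP1 and BMP8B fell by 0.39 and 0.58 in HepG2 and by 0.58 and 0.67 in LM3. With quantile normalization BMP8B was at -0.22 in HepG2 and -0.34 in LM3. BMP2, a ligand of the SMAD1 branch, had HepG2 values of 148.30, 166.49 and 167.42 with siFASRL and 31.60, 36.28 and 33.48 with siNC. All siFASRL libraries were high and the log2 fold change was 2.22 (SE 0.072, limma adjusted p = 2.6e-08). BMP6, the ligand that sets hepcidin in liver, rose by 1.28 in HepG2 (SE 0.053, limma adjusted p = 6.67e-08), again without overlap. In LM3, BMP2 rose by 0.91 (limma adjusted p = 5.26e-06) and BMP6 by 0.27 (limma adjusted p = 0.0276), both under the fold threshold and with the conditions apart. The LM3 call of BMP6 by adjusted p was lost with no filter and without LM3 siFASRL replicate 1 (0.27) or 2 (0.23). It was kept at 0.16 without LM3 siNC replicate 1 and at 0.45 with quantile normalization. BMP2 in LM3 was past it with a pseudocount of 0.1, at a log2 value of 1.2, and with quantile normalization, at 1.24.

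Of 11 tested genes that store and release latent TGF-beta, 1 was past the threshold as higher and 2 as lower in LM3, beside 1.42% and 6.20% of all tested genes, and 0 in HepG2, beside 3.61% and 6.79%. By adjusted p alone 2 rose and 5 fell in LM3, beside 33.9% and 43.5%, and 5 rose and 4 fell in HepG2, beside 44.8% and 44.3%. Without HepG2 siFASRL replicate 3 the HepG2 counts were 3 and 4, with THBS1 and LTBP1 losing their calls. LTBP4, a protein that binds latent TGF-beta to the matrix, fell from 16.08 ± 1.81 (SD, n = 3) to 6.40 ± 0.64 in LM3, a log2 fold change of -1.20 (SE 0.092, limma adjusted p = 6.59e-06). LTBP3, a binding protein of the same family, changed by -1.19 in LM3, and with quantile normalization by -0.81. THBS1, the activator of latent TGF-beta thrombospondin 1, rose from 1.91 ± 0.16 to 5.57 ± 0.23, a log2 fold change of 1.18 (SE 0.058, limma adjusted p = 8.48e-07). For all of these the LM3 conditions did not overlap. In HepG2 the log2 fold change was -0.97 for LTBP4, -0.58 for LTBP3 and 0.21 for THBS1. LTBP4 was past the threshold there too with a pseudocount of 0.1 (-1.17) and without HepG2 siNC replicate 1 (-1.03). The effect in HepG2 minus that in LM3 was 0.24 for LTBP4 (limma adjusted p = 0.148), 0.61 for LTBP3 (limma adjusted p = 0.00232) and -0.97 for THBS1 (limma adjusted p = 2.69e-06). Without LM3 siNC replicate 1 the LTBP4 difference passed the test, at 0.32, and with quantile normalization that of LTBP3 did not, at 0.11, while a pseudocount of 0.1 gave 1.02 for LTBP3.

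The other receptor genes stayed under the fold threshold. Of 7 tested in each line, 3 rose and 2 fell in HepG2 by adjusted p, and 0 rose and 5 fell in LM3, where 44.8% and 44.3% of all tested genes rose and fell in HepG2 and 33.9% and 43.5% in LM3. The counts rest on the scaling. In LM3, 0 rose and 3 fell with median-of-ratios scaling, and with quantile normalization 1 rose and 1 fell. In HepG2, 3 rose and 1 fell with quantile normalization, where ACVR2B went from -0.44 to -0.09 and lost its call. Examples are ACVR1B, the activin type I receptor, which fell by 0.47 in HepG2 and by 0.34 in LM3 (-0.31 and -0.18 with quantile normalization), and CD109, a coreceptor that binds TGF-beta, which rose by 0.35 in HepG2 and fell by 0.31 in LM3, the latter not past the test with quantile normalization, at -0.10.

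Of 4 other SMAD genes tested in HepG2, 0 rose and 2 fell by adjusted p, and of 3 in LM3, 0 rose and 1 fell, beside 44.8% and 44.3% of all tested genes in HepG2 and 33.9% and 43.5% in LM3. SMAD6, an inhibitory SMAD and BMP target, fell by 0.89 in HepG2 (limma adjusted p = 7.99e-05) and by 0.82 in LM3 (limma adjusted p = 1.47e-05), with no overlap. SMAD9, which carries BMP signals, was past the threshold in HepG2. Its mean was 1.70 ± 0.17 (SD, n = 3) with siFASRL and 4.46 ± 0.28 with siNC, a log2 fold change of -1.01 (SE 0.067, limma adjusted p = 7.54e-07) with all siFASRL values under all siNC values. It lay near the threshold: its log2 fold change was -0.97 without HepG2 siFASRL replicate 2, -0.97 without HepG2 siNC replicate 1 and -0.72 with quantile normalization. SMAD2, the partner of SMAD3, and SMAD4, the common SMAD, had log2 fold changes of 0.12 and 0.06 in HepG2 and 0.06 and -0.03 in LM3, and none of these passed the test. They passed it as higher with quantile normalization, SMAD4 at 0.22 in HepG2 and 0.25 in LM3 and SMAD2 at 0.17 in LM3, and SMAD2 in LM3 also with median-of-ratios scaling, at 0.18.

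Among inhibitors and regulators, 2 of 17 tested genes rose past the threshold in HepG2 and 0 fell, beside 3.61% and 6.79% of all tested genes. None of the 17 was past it in LM3, beside 1.42% and 6.20%. By adjusted p alone 8 rose and 8 fell in HepG2, beside 44.8% and 44.3%, and 5 rose and 8 fell in LM3, beside 33.9% and 43.5%. FSTL1, a secreted follistatin-like glycoprotein, rose from 58.12 (range 55.76 to 60.11, n = 3) to 159.37 (range 156.90 to 161.14) in HepG2, a log2 fold change of 1.44 (SE 0.055, limma adjusted p = 4.59e-08). PMEPA1, a target gene whose membrane protein holds SMAD2 and SMAD3 back, rose in HepG2 from 4.92 ± 0.37 to 11.31 ± 0.48, a log2 fold change of 1.06 (SE 0.064, limma adjusted p = 4.8e-07). In LM3, PMEPA1 rose by 0.52 and FSTL1 by 0.54, with the conditions apart. SKIL, a nuclear corepressor of the SMADs and an early target, fell by 0.56 in HepG2. Its change of -0.15 in LM3 did not pass the test, but did without LM3 siNC replicate 3, at -0.20. The LM3 change was smaller with median-of-ratios scaling (-0.04), with quantile normalization (-0.07) and without LM3 siNC replicate 1 (-0.08).

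The targets of TGF-beta and activin moved in both directions. In HepG2, 26 of 35 tested targets rose and 8 fell by adjusted p, beside 44.8% and 44.3% of all tested genes. Past the threshold were 6 as higher and 2 as lower, beside 3.61% and 6.79%. In LM3, 19 of 31 rose and 8 fell, beside 33.9% and 43.5%, and 5 were past the threshold as higher and 3 as lower, beside 1.42% and 6.20%. The median log2 fold change of the targets was 0.31 in HepG2 and 0.19 in LM3, against 0.10 and -0.06 over all tested genes. The LM3 median of the targets was 0.28 with median-of-ratios scaling and 0.38 with quantile normalization. TGFBI, encoding a matrix protein widely used as a target of the pathway, was not listed.

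IL11, a cytokine of the IL6 family induced by TGF-beta, had HepG2 values of 25.36, 29.25 and 29.52 with siFASRL and 5, 6.09 and 4.72 with siNC. LM3 values were 10.85, 9.74 and 9.39 with siFASRL and 2.01, 1.74 and 2.17 with siNC. The siFASRL libraries were high in both lines, with log2 fold changes of 2.21 in HepG2 (SE 0.091, limma adjusted p = 6.5e-08) and 1.89 in LM3 (SE 0.073, limma adjusted p = 3.3e-07). RHOB, a small GTPase of the actin cytoskeleton, rose from 198.81 ± 26.31 (SD, n = 3) to 528.53 ± 58.33 in HepG2 and from 173.98 ± 20.14 to 415.61 ± 9.58 in LM3. Its log2 fold changes were 1.41 (SE 0.106, limma adjusted p = 1.75e-06) and 1.26 (SE 0.083, limma adjusted p = 3.09e-06), with no overlap. IL11 and RHOB were the 2 list genes past the threshold as higher in both lines, of 79 tested in both, beside 0.912% of all 7349 genes tested in both, and BMP2 joined them with a pseudocount of 0.1 and with quantile normalization.

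VIM, the intermediate filament gene of mesenchymal cells and a target that TGF-beta raises, went against them. Its HepG2 values were 57.83, 61.36 and 58.99 with siFASRL and 271.75, 293.86 and 286.15 with siNC. In LM3 they were 61.35, 69.91 and 72.14 with siFASRL and 351.81, 387.42 and 381.32 with siNC. All siFASRL libraries were low, with log2 fold changes of -2.24 in HepG2 (SE 0.057, limma adjusted p = 7.2e-09) and -2.45 in LM3 (SE 0.073, limma adjusted p = 1.95e-07). VIM was the 1 list gene past the threshold as lower in both lines, beside 2.42% of all genes tested in both. LTBP4 joined it without HepG2 siNC replicate 1, ID2 without LM3 siNC replicate 1, both with a pseudocount of 0.1, and CDKN1A with quantile normalization.

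CTGF, a matrix-associated growth factor gene, went in opposite directions, with a fall of 0.69 in HepG2 (limma adjusted p = 0.000474) and a rise of 0.93 in LM3 (limma adjusted p = 2.34e-05), each with the conditions apart. In LM3 CTGF was past the fold threshold, at 1.04 to 1.12, with a pseudocount of 0.1, median-of-ratios scaling or quantile normalization. KLF10, an early transcription factor of the pathway, rose by 0.34 in HepG2 and by 0.65 in LM3. JUNB, an AP-1 gene induced by SMADs, rose by 0.45 in HepG2 with overlapping values, and its LM3 change of 0.15 did not pass the test and was -0.02 without LM3 siNC replicate 1.

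TAGLN and TPM1, which encode actin-binding proteins, rose by 1.09 (SE 0.059) and 1.16 (SE 0.051) in HepG2, and COL4A1, a basement membrane collagen, rose by 1.03 (SE 0.056). Without HepG2 siNC replicate 1, COL4A1 lay just under the fold threshold, at 1 after rounding. COL3A1, a fibrillar collagen, fell by 1.52 in HepG2 (SE 0.065, limma adjusted p = 7.54e-08), from 31.43 ± 1.05 (SD, n = 3) to 10.31 ± 0.75. FN1, the gene of fibronectin, changed by 0.29 in HepG2 (limma adjusted p = 0.0018), and by -0.02 with quantile normalization, and in the joint fit of 12 libraries the same 0.29 did not pass the test (limma adjusted p = 0.133). In LM3, FN1 was too low to be tested, with values of 0.31, 0.14 and 0.10 with siFASRL and 0.18, 1.38 and 0.66 with siNC.

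In LM3 the genes past the threshold as lower included CDKN1A, the cell cycle inhibitor p21, and COL1A1, the main fibrillar collagen. CDKN1A fell from 12.31 ± 1.33 (SD, n = 3) to 2.29 ± 0.18 in LM3, a log2 fold change of -2.01 (SE 0.080, limma adjusted p = 3.63e-07), and fell by 0.89 in HepG2. COL1A1 fell from 9.95 ± 1.05 to 3.01 ± 0.25 in LM3, a log2 fold change of -1.45 (SE 0.079, limma adjusted p = 1.32e-06). NEDD9, a scaffold protein of focal adhesions, rose by 1.21 in LM3 (SE 0.055, limma adjusted p = 5.34e-07), where the conditions did not overlap. Its HepG2 log2 fold change of 0.08 did not pass the test, and was -0.01 with quantile normalization.

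**Figure D4:**
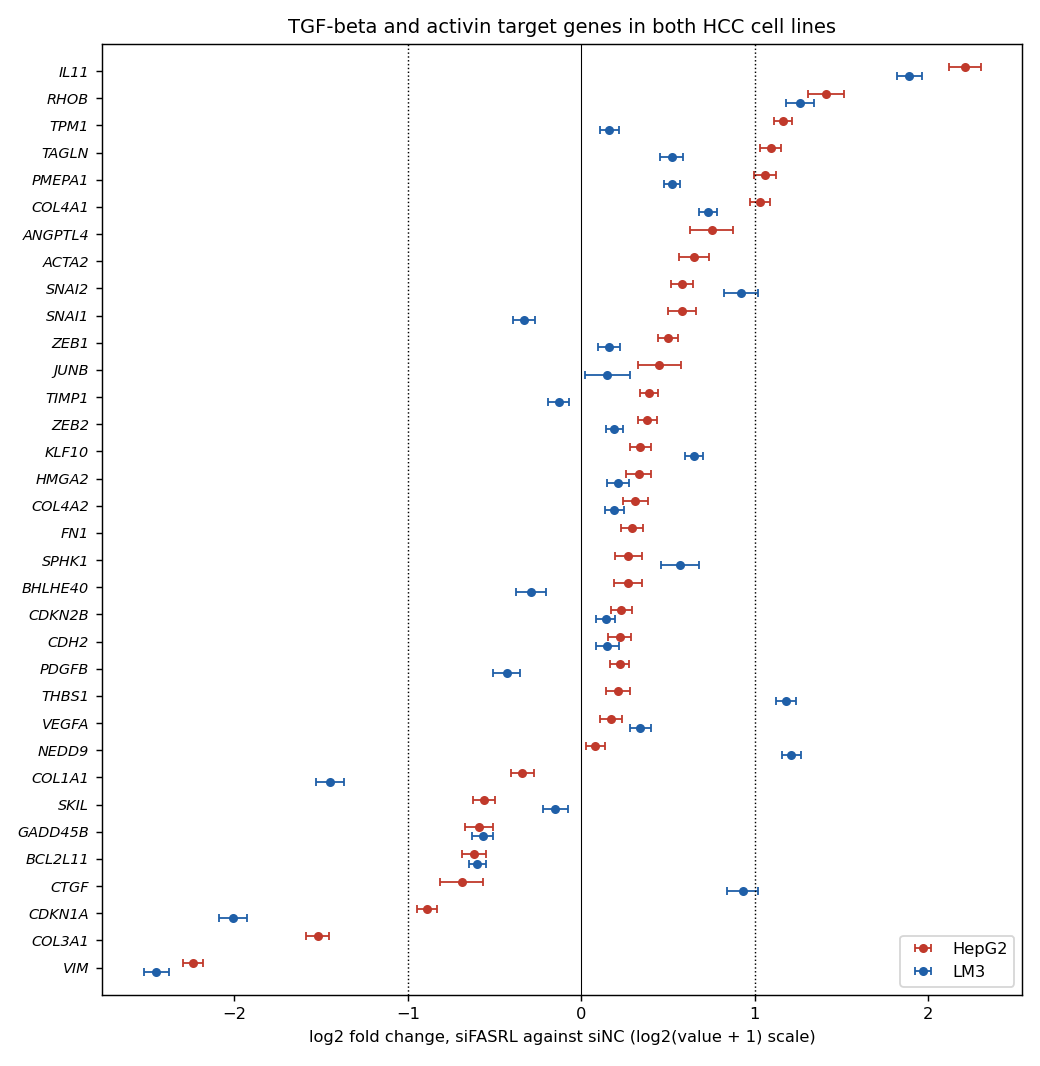
Log2 fold change of siFASRL against siNC (x axis) for tested targets of TGF-beta and activin (y axis, 1 target not drawn), HepG2 in red and LM3 in blue. Points are limma estimates, bars their SE, and dotted lines mark -1 and 1. IL11 and RHOB lie past 1 and VIM past -1 in both lines, CTGF lies on opposite sides of 0, and ANGPTL4, ACTA2, FN1 and COL3A1 were not tested in LM3.

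Genes that TGF-beta lowers in epithelial cells did not share a direction in HepG2. CDH1, which encodes E-cadherin, fell from 7.69 ± 0.51 (SD, n = 3) to 1.99 ± 0.16 in HepG2, a log2 fold change of -1.54 (SE 0.066, limma adjusted p = 7.97e-08), with no overlap. MYC and CDC25A, which drive the cell cycle, rose by 0.62 and 0.60 in HepG2 and by 0.98 and 0.83 in LM3, and CCNA2, a cyclin, rose by 0.31 in LM3. MYC in LM3 was past the threshold with median-of-ratios scaling, at 1.1, and without LM3 siNC replicate 3, at 1 after rounding. The HepG2 change of CCNA2, 0.14, lost its call with quantile normalization, at 0.06, and without HepG2 siFASRL replicate 2 or 3 or HepG2 siNC replicate 1 or 2, at 0.12 to 0.15. In LM3, CDH1 stayed under 1 in all 6 libraries.

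HAMP and ID2 were the BMP targets past the threshold in HepG2. HAMP, the gene of the iron hormone hepcidin, had values of 40.63, 36.49 and 36.09 with siFASRL and 270.82, 279.44 and 271.35 with siNC in HepG2. All siFASRL libraries were low, with a log2 fold change of -2.83 (SE 0.062, limma adjusted p = 3.24e-09). ID2, an inhibitor of differentiation factors, fell by 1.66 in HepG2 (SE 0.083, limma adjusted p = 1.73e-07), without overlap, and ID3 of the same family rose by 0.57. Of 7 tested BMP targets in HepG2, 2 rose and 4 fell by adjusted p, beside 44.8% and 44.3% of all tested genes. Of the 4, ATOH8, at -0.37, lost its call with quantile normalization (-0.14), without HepG2 siFASRL replicate 1 (-0.21) and without HepG2 siNC replicate 2 (-0.26). In the last of these BAMBI also passed as higher, at 0.22, so that 3 rose and 3 fell. In LM3, HAMP was at 0 or close to it in all libraries, ID2 fell by 0.94 and ID3 rose by 0.41, and ID1 was not listed.

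Whether the knockdown effect differed between the lines was tested with an interaction term over all 12 libraries. Of 87 tested list genes, 55 had a difference with an adjusted p under 0.05, 35 with a higher and 20 with a lower effect in HepG2, beside 46.7% of all 8285 tested genes. Of the 55, 7 were too low for a test in LM3. PMEPA1 had a larger effect in HepG2, by 0.53 (SE 0.074, limma adjusted p = 7.41e-05), or 0.87 with quantile normalization. RHOB differed by 0.15 (limma adjusted p = 0.436) and VIM by 0.21 (limma adjusted p = 0.0785), and neither passed the test, VIM passing it with a replicate block (0.21) and without LM3 siFASRL replicate 3 or LM3 siNC replicate 1 (0.25 in both). IL11 differed by 0.33 (limma adjusted p = 0.0488). That call was lost with a pseudocount of 0.1 (0.11), median-of-ratios scaling (0.27) or a replicate block (0.33), and kept with quantile normalization, at 0.57. It was also lost, at 0.26 to 0.32, without HepG2 siFASRL replicate 2 or 3, HepG2 siNC replicate 1 or 3, LM3 siFASRL replicate 2 or 3, or LM3 siNC replicate 1 or 3.

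The lines without knockdown were compared to see where the pathway starts from, a contrast that shares its siNC libraries with the knockdown contrasts. TGFBR2 was higher in HepG2 by 1.22 (SE 0.058, limma adjusted p = 2.46e-07), with a mean of 44.75 ± 1.74 (SD, n = 3) against 18.70 ± 0.77. SMAD7 was higher in HepG2 by 0.92 (SE 0.056, limma adjusted p = 1.13e-06) and SMAD3 by 0.71 (SE 0.052, limma adjusted p = 3.21e-06). TGFB2 was lower in HepG2, by -0.76 (SE 0.063, limma adjusted p = 7.58e-06), and so was TGFBR1, by -0.52 (SE 0.072, limma adjusted p = 0.000204). For these 5 genes all 3 libraries of a line lay on the same side of the other line. TGFB1, at 0.12 (SE 0.085, limma adjusted p = 0.205), and TGFBR3, at 0.01 (SE 0.062, limma adjusted p = 0.847), did not pass the test. HepG2 siNC thus held less ligand TGFB2 and type I receptor than LM3 siNC, and more type II receptor, SMAD3 and SMAD7.

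Of the 7, TGFBR2 was past the fold threshold as higher in HepG2, and TGFB2 was past it as lower with a pseudocount of 0.1, at -1.01, and with quantile normalization, at -1.26. By adjusted p alone 3 were higher and 2 lower. Over all 8176 tested genes, 15.6% were past the threshold as higher in HepG2 and 7.74% as lower, and 40.6% and 40.4% by adjusted p alone. Of the other list genes, 26 of 87 were past the threshold as higher in HepG2 and 11 as lower. Of the 26, 8 did not reach the filter in the LM3 siNC libraries and were tested through HepG2 alone, which fixes their direction, and 18 reached it in both lines. INHBB, the activin B subunit, was lower in HepG2 by -2.97 and BMP2 was higher by 3.66, each with the lines apart.

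**Figure D5:**
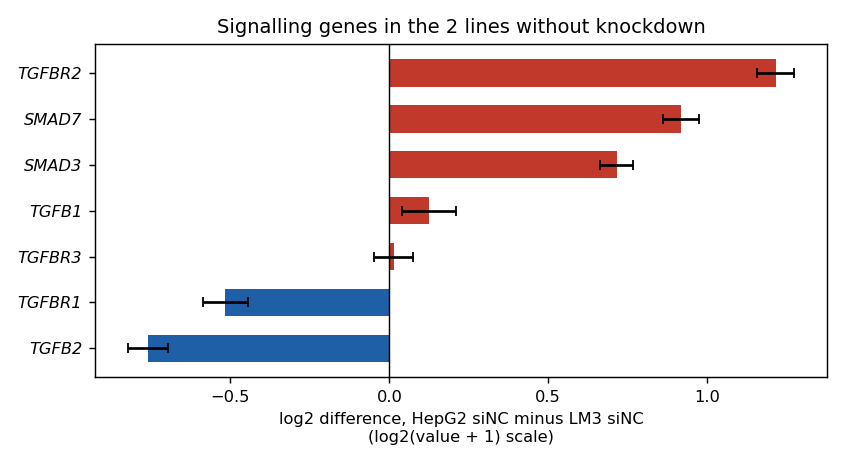
Log2 difference of HepG2 siNC minus LM3 siNC (x axis) for the 7 tested signalling genes (y axis). Bars are limma estimates with their SE, red where HepG2 is higher and blue where it is lower. TGFBR2 has the largest difference, 1.22, and TGFBR3 the smallest, 0.01.

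The genes most like TGFB2 over the 12 libraries, by Pearson r of log2(value + 1) among 8284 genes, were ZKSCAN5 (0.9940), FSTL1 (0.9916), NPR3 (0.9915), LENG1 (0.9914) and NOL10 (0.9908). The 12 points fall into 4 groups, so r is a description of the group pattern and has no p. ZKSCAN5, a zinc finger gene, had mean values of 6.44 and 2.92 in HepG2 with siFASRL and siNC and of 7.09 and 4.82 in LM3. NPR3, a receptor that clears natriuretic peptides, had 25.09 and 7.84 in HepG2 and 34.54 and 16.54 in LM3. FSTL1 was also on the list of regulators. Among the signalling genes, TGFBR1 had an r of 0.98 with TGFB2, while TGFB1 had 0.05, TGFBR3 0.15, TGFBR2 -0.12, SMAD3 -0.47 and SMAD7 -0.70.

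Markers of cell types moved with the knockdown, and their part in the results was not tested. The sum of the 9 listed of 10 hepatocyte markers was 1737.58 to 1830.71 in HepG2 siFASRL and 3670.47 to 4055.65 in HepG2 siNC, with SERPINA1 the most abundant and none at 0. In LM3 they summed to 6.70 to 8.01 with siFASRL and 15.32 to 18.43 with siNC, with HNF4A the most abundant and TTR at 0 in 5 of 6 libraries. The 4 biliary and progenitor markers, led by KRT7, summed to 1040.39 to 1095.21 in HepG2 siFASRL against 507.73 to 554.32 in siNC, and to 357.39 to 368.45 against 188.29 to 216.33 in LM3. The markers did not share a direction: KRT7 and KRT19 rose in HepG2, while SOX9 fell from a mean of 34.17 to 25.63 and EPCAM from 31.48 to 15.27. In LM3 the higher sum was that of KRT7, with EPCAM falling from 5.37 to 3.87 and KRT19 and SOX9 under 1. The libraries are of single cell lines, and in bulk RNA fewer cells carrying a marker and less RNA per cell cannot be told apart.

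Fibroblast and stellate markers, of which 6 of 8 were listed, include COL1A1, COL3A1, ACTA2 and DCN from the pathway lists. They summed to 48.20 to 54.21 in HepG2 siFASRL, led by ACTA2, and 81.18 to 82.93 in siNC, led by COL3A1. In HepG2, ACTA2 rose from a mean of 10.75 to 17.44, while COL3A1 fell and LUM fell from 14.45 to 4.72. In LM3 they summed to 5.06 to 6 with siFASRL and 13.56 to 15.65 with siNC, led by COL1A1, with DCN and LUM at 0 in all LM3 siFASRL libraries. Of the endothelial markers 1 of 4 was listed, VWF, at 0.02 to 0.35 in all libraries. Of the leukocyte markers 2 of 5 were listed, CD68 and LYZ. They summed to 87.24 to 96.96 in HepG2 siFASRL and 121.65 to 126.62 in siNC, and to 18.43 to 19.03 and 15.10 to 18.19 in LM3. In HepG2, LYZ fell from a mean of 82.68 to 46.13, while CD68 had means of 41.11 with siNC and 44.88 with siFASRL. In LM3, CD68 rose from 14.89 to 17.52 and LYZ fell from 1.60 to 1.13.

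The files do not say how the 8842 genes came to be listed, and in HepG2 5 of 6367 genes with a mean of at least 5 had a log2 ratio between -0.20 and -0.04, against 578 of 5937 in LM3. Shares of called genes are therefore over a selected list. On GENCODE v29, exons of TGFB1 overlap HNRNPUL1 and exons of SMAD3 overlap an antisense transcript, both on the opposite strand, and TGFB2 overlaps TGFB2-OT1 on its own strand. Whether counting used the strand is not stated, so reads from the shared parts cannot be told apart.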

How the data were processed

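RNA-seq was measured in 12 libraries (HepG2 and LM3, siFASRL and siNC, 3 replicates each), grouped by their labels. The authors mapped reads with HISAT2 and Bowtie2 and quantified genes with RSEM. The deposited values are normalized RSEM values per gene, not counts, and the authors do not state whether the unit is FPKM, TPM or other. The submitters name hg19, while the files name chromosomes as GRCh38 does. Depth is unknown. Of the 8842 genes, 8790 were found by gene identifier in the RefSeq table, and 17 symbols turned into dates were restored. The table of HepG2 siFASRL replicate 3 holds 6 further columns for LM3 libraries, which were not used.

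Genes that reached 1 in 3 or more libraries of a fit were tested on log2(value + 1) by limma (3.58.1, R 4.3.3), with Benjamini-Hochberg adjustment over all tested genes. Ratios are of group means. Each knockdown contrast used the 6 libraries of its line, the line comparison the 6 siNC libraries, and the interaction all 12. An exact permutation test of 3 against 3 libraries cannot go under a p of 0.1 and was not used. Tables and plots used Python 3.11.15, pandas 2.3.3 and matplotlib 3.10.9.

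The genes and lists were chosen with earlier results of these data known. Named were the 9 genes, up to 4 genes per list and line with the largest change past the threshold and no overlap, known targets where listed, and the 5 genes most like TGFB2. ACVR1B, ACVR2B, CD109, LTBP1, SMAD2, SMAD4, MYC, CDC25A, CCNA2, ID3, FST, TAGLN, TPM1, COL4A1, NEDD9, BMP1, BMP8B, SMAD6, ATOH8 and BAMBI were named after their values were seen. Alternatives were a pseudocount of 0.1, no filter, a minimum of 5, median-of-ratios scaling, quantile normalization, a replicate block, a joint fit and leaving out each library. The limma fits were tested on simulated data.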

Additional observations from a re-analysis of the deposited data

Results flagged for a closer look

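The knockdown effect differed between the lines, by the interaction term and by at least 1 on the log2 scale, for 9 named genes tested in both lines. By adjusted p alone, 46.7% of all 8285 tested genes differed, and the share that also reached 1 is not given. Except CTGF, the 9 were named for a large change in a line or after their values were seen, which favours such a difference. Nothing is read from their count. Each difference is the effect in HepG2 minus that in LM3, and no cause was tested.

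Among ligands, INHBB differed by 1.33 (limma adjusted p = 1.79e-06), with an effect of 1.2 in HepG2 and -0.13 in LM3. BMP2 differed by 1.31 (limma adjusted p = 3.83e-07), with 2.22 and 0.91. BMP6 differed by 1.01 (limma adjusted p = 9.21e-06), with 1.28 and 0.27. The activin-binding FST differed by -1.45 (limma adjusted p = 1.02e-05), with -0.66 and 0.79, so its direction was opposite in the lines.

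Among targets, CTGF differed by -1.63 (limma adjusted p = 7e-06), with -0.69 and 0.93, again in opposite directions. NEDD9 differed by -1.13 (limma adjusted p = 8.02e-08), with 0.08 and 1.21, and TPM1 by 1 (limma adjusted p = 1.2e-07), with 1.16 and 0.16. CDKN1A differed by 1.12 (limma adjusted p = 1.16e-06), with -0.89 and -2.01, and COL1A1 by 1.1 (limma adjusted p = 2.41e-06), with -0.34 and -1.45, so both fell further in LM3. With quantile normalization these 2 differences were 0.59 and 0.70. BMP6 and TPM1 lay near the limit of 1 and went under it, to between 0.93 and 1, with median-of-ratios scaling and without some single libraries, TPM1 also with quantile normalization.

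For another 3 genes all LM3 values were under 1. They passed the filter through HepG2 alone, so their differences restate the HepG2 effect and are no test of a line difference. COL3A1 differed by -1.51 (limma adjusted p = 9.4e-09), CDH1 by -1.47 (limma adjusted p = 5.03e-08) and HAMP by -2.80 (limma adjusted p = 2.35e-09), with HepG2 effects of -1.52, -1.54 and -2.83.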

How the results depend on the processing

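List genes past the threshold numbered 17 for HepG2 and 10 for LM3, and 55 list genes differed between the lines by adjusted p alone. Each count stayed within 1.5 times its value under every alternative run. The counts lay between 16 and 18 in HepG2, 9 and 14 in LM3 and 51 and 60 for the difference, and leaving out 1 library gave 16 to 17, 10 to 12 and 50 to 59. A fit with a replicate block gave counts of 17, 10 and 57. Whether the replicate numbers pair the samples is not stated. The deviations of the genes from their group means were correlated between libraries of the 2 conditions. For same-numbered libraries r lay between -0.20 and 0.37 in HepG2 and between -0.17 and 0.12 in LM3. For differently numbered libraries it lay between -0.46 and 0.30 in HepG2 and between -0.12 and 0.19 in LM3. These values do not settle whether the samples are paired.

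No signalling gene with groups apart changed its sign in a knockdown contrast under an alternative. Between the lines under siNC, INHBA, untested, went from 0.03 to -0.21 with quantile normalization. TGFB2 ranged from 1.18 to 1.57 in HepG2 and from 0.64 to 0.92 in LM3, TGFBR1 from 0.99 to 1.09 and from 0.46 to 0.63, TGFBR2 from 0.52 to 0.69 and from 0.17 to 0.31, and SMAD7 in HepG2 from -0.51 to -0.41. TGFB1 in HepG2 ranged from 0.08 to 0.30 and SMAD3 in LM3 from -0.28 to -0.15. SMAD3 in HepG2, with overlapping groups, was -0.02 with quantile normalization. Scaling moved the median of all genes by 0.11 in LM3 (median-of-ratios) and by -0.14 between the lines (quantile). The share of called genes that were higher went from 34.7% to 47.0% in HepG2 (quantile), from 18.6% to 31.0% (median-of-ratios) or 37.9% (quantile) in LM3, from 66.9% to 53.5% between the lines (quantile) and from 58.3% to 47.3% for the difference (median-of-ratios). The causes were not tested. Without counts the precision of low values such as INHBA is unknown.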
